A study of Drosophila melanogaster with 6 samples.

Results

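T-box genes encode transcription factors that bind DNA through a shared domain, the T-box, and set regional identity in many animal tissues. Here 7 T-box genes of Drosophila melanogaster were followed in pieces of the wing imaginal disc: the 3 Dorsocross genes Doc1, Doc2 and Doc3, bi (also known as optomotor-blind), the sister genes mid and H15, and org-1. They were taken as every probe set whose only platform-annotation symbol is one of these names. That gave 1 probe set each, 7 of the 10844 genes with a probe set of their own name. The rule that finds the probe sets uses no measured value, but the genes themselves were picked with earlier results of these data known.

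The wing disc is the larval epithelium that gives rise to the wing blade, the hinge and the body wall of the dorsal thorax. Discs of wild-type larvae of the last larval stage were dissected to separate body wall from wing and hinge, and total RNA of each fragment was hybridised to 3 Affymetrix arrays. The 6 arrays share genotype, stage and tissue, and the labels describe 3 biological replicates per fragment but do not say how many discs were pooled or whether they were dissected separately. P-values therefore measure the spread between these arrays. The labels give body wall 1 and body wall 2 similar second names. Their log2 values differed with an SD of 0.814, inside the 0.735 to 0.868 of the other pairs from the same fragment. This cannot decide whether they repeat the same RNA, because noise between arrays could give such a spread as well. They were kept as separate samples, as their titles number them. Averaging them lowered the count of T-box genes called from 3 to 1.

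In the wing disc bi is known as a target of Dpp, the BMP-type morphogen made along the anterior-posterior boundary. It acts in the wing primordium to pattern the blade. The Doc genes lie close together in the genome and are known in the embryo for their part in the amnioserosa and the heart, and in the wing disc for the fold between hinge and blade. The pair mid and H15 is known from the embryonic heart and from ventral leg fate, and org-1 from embryonic muscle.

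In their sums the body wall and wing pouch markers followed the fragment names, while the hinge markers were split. Summed over 10 body wall markers, intensity was 4838 to 5763 on body wall arrays and 1612 to 2198 on wing/hinge arrays, with 4 markers called. The sum over 8 wing pouch markers was 1445 to 1830 in body wall and 7197 to 8714 in wing/hinge, with 5 called. Of the uncalled pouch markers vg lay toward wing/hinge, at a log2 difference of -1.12. The fragments of rn, at -0.46, and of bs, which lay the other way at 0.87, overlapped. Over 9 hinge markers the sums overlapped, at 3585 to 4427 in body wall and 3954 to 4332 in wing/hinge, and 3 were called, namely Poxn, zfh2 and Sox15, each higher in wing/hinge. Another 4 lay the other way without passing, namely drm at 1.61, sob at 1.09, tsh, also a body wall marker here, at 1.01, and odd, whose fragments overlapped. The median log2 difference of the hinge list was 0.02. The body wall fragment also held more signal of the mesodermal muscle precursors that lie under the notum, with sums of 2358 to 2662 in body wall and 326 to 540 in wing/hinge over 6 markers, of which 5 were called. Over 6 haemocyte markers, body wall arrays summed to 1443 to 1698, against 367 to 454 on wing/hinge arrays, with 1 called, Col4a1. Most of the body wall sum came from Col4a1, with a mean of 866.6 against 175.8, and from the uncalled vkg, at 389.6 against 68.2. The fragments of eater, Pxn and Hml overlapped, while srp lay toward body wall at 0.70, with low signal. This sum thus follows Col4a1 and vkg more than the haemocyte list as a whole. Over 4 tracheal markers the sums were 7219 to 7978 in body wall, against 4778 to 5548 in wing/hinge. Most of each sum came from the uncalled verm, with a mean of 5664 against 3523, and the uncalled serp, at 1775 against 922. The uncalled btl averaged 80.5 against 14.8. This sum thus follows verm and serp more than the tracheal list as a whole. The tracheal list had 1 call, vvl, which is also a wing pouch marker here and was higher in wing/hinge. The 2 peripodial membrane markers, at 229 to 384 in body wall and 239 to 348 in wing/hinge, were not called. No tested marker was at the floor on all 3 body wall arrays, while B-H2, srp and btl were so on all 3 wing/hinge arrays. The haemocyte marker NimC1, which was not tested, was under the floor on all 6 arrays. The part of these tissues in the T-box differences was not tested. In such bulk RNA, fewer expressing cells and less RNA per cell cannot be told apart.

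Doc2, Doc3 and bi were lower in body wall than in wing/hinge, and Doc1 lay in the same direction without passing the test. The other members, mid, H15 and org-1, had overlapping fragments and did not pass. By limma, with p-values adjusted by Benjamini-Hochberg across the 11698 probe sets that entered the fit, 3 of the 7 members had an adjusted p under 0.05, against 0.915% of all probe sets. All 3 were higher in wing/hinge, which held for 0.325% of probe sets, and none of the 7 was called higher in body wall, which held for 0.59%. At an unadjusted limma p under 0.05 the count was 4, Doc1 being the fourth, against 8.97% of all probe sets. In 4 members the 3 wing/hinge values all lay above the 3 body wall values, a pattern seen in 6.53% of the probe sets tested. The median log2 difference, body wall minus wing/hinge, was -1.53 over the 7 members and 0.03 over all probe sets tested. Because the members were picked with earlier results of these data known, these shares and medians are a description only.

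**Figure D1:**
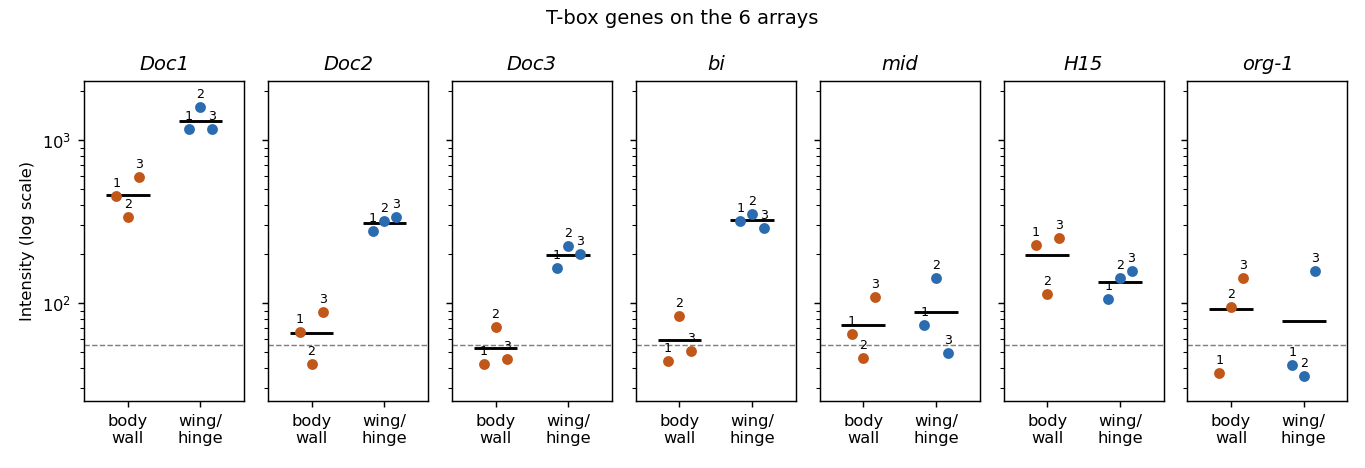
Intensity (log axis) of the 7 T-box genes on each array, with the array number beside each point, a black bar at the mean of 3 arrays, and a dashed line at 55.1, the 95th percentile of control probe sets for RNA absent from flies. The fragments are apart for Doc1, Doc2, Doc3 and bi, while those of mid, H15 and org-1 overlap.

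The bi gene had the largest difference of the 7. It measured 44.2, 83.3 and 50.7 on body wall arrays 1 to 3, against 320.1, 354.1 and 289.6 on wing/hinge arrays 1 to 3. The lowest wing/hinge array was thus well above the highest body wall array, body wall 2. It averaged 59.4 ± 21.0 in body wall and 321.3 ± 32.3 in wing/hinge arrays (SD, n = 3 each), so that body wall held 0.185 of the wing/hinge level. The log2 difference was -2.49 (SE 0.30, 95% interval -3.19 to -1.78; limma adjusted p = 0.0191), rank 28 of 11698 from the wing/hinge end. Body wall 1 and body wall 3 lay under 55.1, the 95th percentile of control probe sets for RNA absent from flies, and body wall 2 under their maximum of 91.8. The body wall signal of bi was thus close to background.

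Among the Dorsocross genes, Doc2 differed most between the fragments. It measured 67.0, 42.2 and 87.8 in body wall, against 277.3, 319.6 and 337.6 in wing/hinge. The wing/hinge arrays were close to each other, while the body wall arrays spread widely at low signal, with body wall 2 under the control percentile. On average it reached 65.7 ± 22.8 in body wall and 311.5 ± 31.0 in wing/hinge arrays (SD, n = 3 each), a body wall level of 0.211 of that in wing/hinge. The log2 difference was -2.30 (SE 0.32, 95% interval -3.05 to -1.55; limma adjusted p = 0.0302), rank 29 from the wing/hinge end, next to bi.

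Doc3 followed with 42.1, 71.9 and 45.2 in body wall, against 163.3, 225.2 and 199.6 in wing/hinge. Its body wall arrays had the same order as those of bi, with body wall 2 highest and the other two under the control percentile. Doc3 averaged 53.1 ± 16.4 in body wall and 196.0 ± 31.1 in wing/hinge arrays (SD, n = 3 each), a ratio of 0.271. The log2 difference was -1.92 (SE 0.29, 95% interval -2.61 to -1.22; limma adjusted p = 0.042), at rank 47.

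Doc1 was far above background on every array. It measured 451.6, 335.7 and 594.9 in body wall, against 1161.5, 1589.9 and 1169.7 in wing/hinge. The fragments did not overlap, and the gap between body wall 3 and wing/hinge 1 was wider than the range within body wall. Doc1 averaged 460.7 ± 129.8 in body wall and 1307 ± 245 in wing/hinge arrays (SD, n = 3 each), so that body wall kept 0.353 of the wing/hinge level. The log2 difference of -1.53 (SE 0.29, 95% interval -2.22 to -0.83) stood at rank 103 and missed the threshold (limma adjusted p = 0.0964, unadjusted p = 0.00135). Doc1 passed with 3 of 13 other processing choices. Its limma adjusted p ran from 0.00474, with a variance that follows intensity, to 0.318, with a replicate block. With the variance that follows intensity Doc3 was not called (limma adjusted p = 0.0692). The 95% intervals of the 3 Doc genes overlap one another, and a difference between them was not tested. Whether probes of one Doc gene also bind transcripts of another was not tested either, because probe sequences were not used here.

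**Figure D2:**
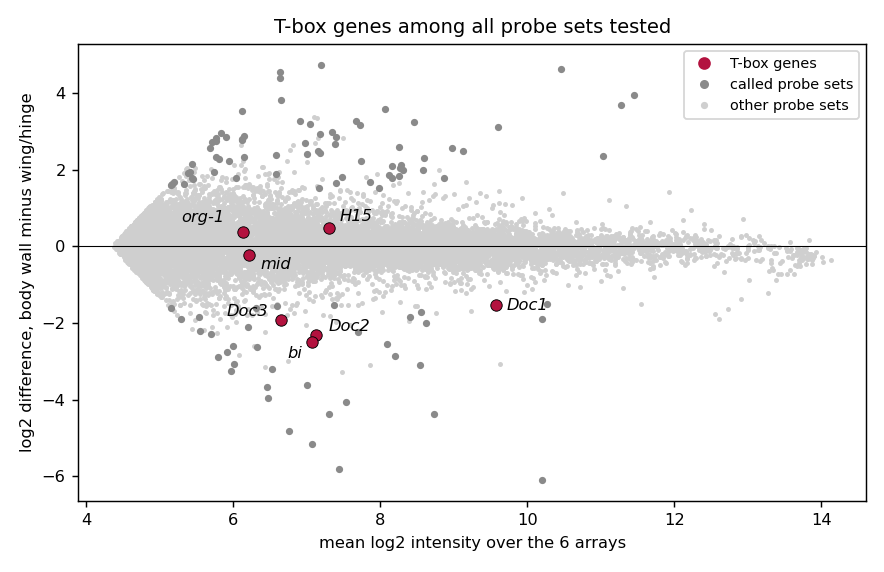
Log2 difference, body wall minus wing/hinge, against the mean log2 intensity over the 6 arrays for every probe set tested (light grey), the called ones (dark grey) and the T-box genes (red). Doc2, Doc3 and bi lie at the lower edge at modest intensity, Doc1 at the lower edge at high intensity, and mid, H15 and org-1 inside the cloud.

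The sister genes mid and H15 gave no call. H15 measured 225.9, 114.5 and 249.4 in body wall, against 106.3, 143.3 and 156.5 in wing/hinge. Body wall 1 and body wall 3 were above every wing/hinge array, and body wall 2 lay within the wing/hinge range. H15 averaged 196.6 ± 72.1 in body wall and 135.4 ± 26.0 in wing/hinge arrays (SD, n = 3 each), with a log2 difference of 0.48 (SE 0.36, 95% interval -0.38 to 1.33; limma adjusted p = 0.793).

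For mid the arrays gave 65.0, 46.4 and 109.2 in body wall, against 73.6, 141.9 and 49.8 in wing/hinge. Each fragment had an array under the control percentile, namely body wall 2 and wing/hinge 3. Its average was 73.5 ± 32.3 in body wall and 88.4 ± 47.8 in wing/hinge arrays (SD, n = 3 each), and the log2 difference was -0.22 (SE 0.48, 95% interval -1.36 to 0.92; limma adjusted p = 0.935). The intervals of mid and H15 both contain 0 and leave room for differences beyond a log2 size of 0.9 in at least one direction, so neither gene was shown to be equal in the fragments.

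The org-1 probe set gave 37.5, 94.6 and 142.5 in body wall, against 41.9, 35.6 and 157.4 in wing/hinge. High and low arrays occurred in each fragment. It averaged 91.5 ± 52.6 in body wall and 78.3 ± 68.6 in wing/hinge arrays (SD, n = 3 each), with a log2 difference of 0.37 (SE 0.71, 95% interval -1.32 to 2.05; limma adjusted p = 0.931). The 3 high arrays, body wall 2, body wall 3 and wing/hinge 3, are those whose brightest value in the whole table was 14881 or less, while the 3 low ones reached 24976 or more. The actin control probe set near the 3' end was 1.92 to 2.98 times as bright as the one near the 5' end on the low arrays, against 1.12 to 1.28 times on the high ones. The part of this split in the org-1 values was not tested. With the split as a block, the org-1 difference turned to -0.24 (limma adjusted p = 0.824).

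The same split was laid over the other members. Within the 3 arrays of narrow range, bi differed by -2.16, Doc1 by -1.39, Doc2 by -2.47 and Doc3 by -1.81 on the log2 scale. Within the 3 arrays of wide range the differences were -2.93 for bi, -1.59 for Doc1, -2.15 for Doc2 and -2.19 for Doc3. Because the fragments do not overlap in these genes, the sign is fixed and only the size is informative, and each set holds 1 fragment on a single array. H15 gave 0.11 in the narrow set and 0.87 in the wide set, while mid gave 0.52 in the narrow set and -0.65 in the wide set. With the split as a block none of the members was called, with limma adjusted p of 0.0574 for bi, 0.084 for Doc2, 0.0841 for Doc3 and 0.199 for Doc1, at log2 differences of -2.54 to -1.49.

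**Figure D3:**
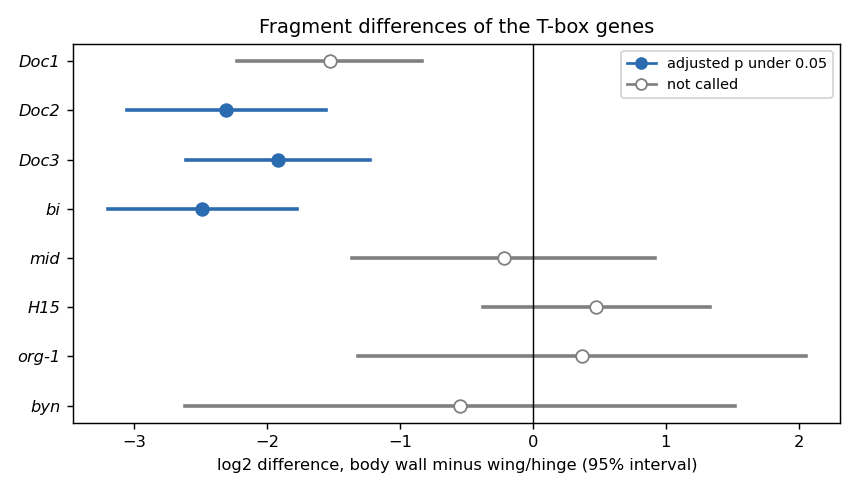
Log2 difference, body wall minus wing/hinge, with its 95% interval from limma for the 7 members and byn (n = 3 arrays per fragment), filled blue where the adjusted p was under 0.05. The intervals of Doc1, Doc2, Doc3 and bi lie below 0, and those of mid, H15, org-1 and byn contain it.

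The T-box gene byn, the fly Brachyury gene of the hindgut and outside the 7, was measured for comparison. It gave 32.1, 83.6 and 6.9 in body wall, against 45.6, 184.5 and 12.5 in wing/hinge. Array 2 was highest and array 3 lowest in each fragment, and only 2 of the 6 arrays exceeded the control percentile. The log2 difference was -0.55 (SE 0.87; limma adjusted p = 0.913).

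The calls were close to the threshold, and the sizes varied less than the p-values. With each of the 6 arrays left out in turn, bi ran from -2.76 to -2.30 and was called only without body wall 2 (limma adjusted p 0.0318 to 0.0936). Doc2 ran from -2.55 to -2.02 (adjusted p 0.0584 to 0.113) and Doc3 from -2.16 to -1.77 (adjusted p 0.0678 to 0.169), and neither was called in any of the 6 fits. Over 13 other processing choices bi was called in 10, Doc2 in 8, Doc3 in 6 and Doc1 in 3, with differences of -2.59 to -2.19, -2.41 to -2.04, -2.02 to -1.63 and -1.63 to -1.43. H15, mid and org-1 were called in none of the 13 and in none of the 6 fits with an array left out.

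**Figure D4:**
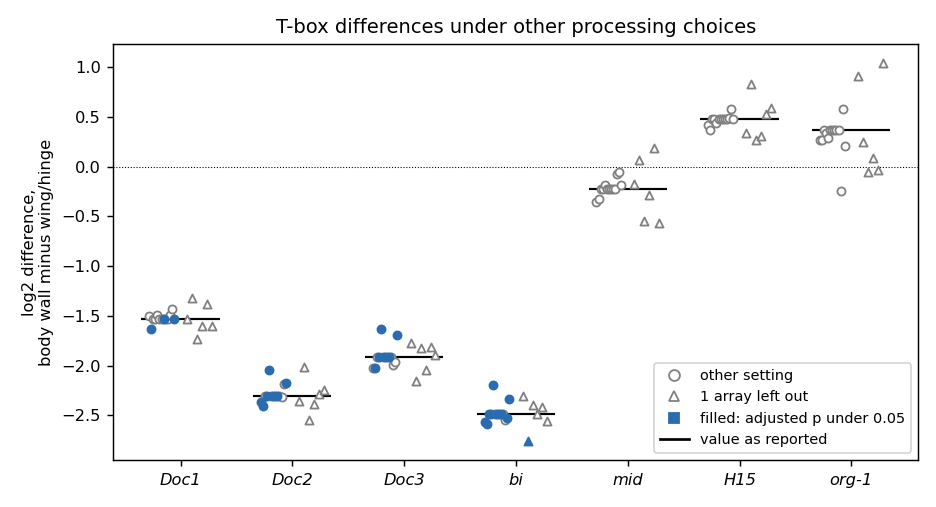
Log2 difference of each member, body wall minus wing/hinge, under 13 other processing choices (circles) and with each of the 6 arrays left out (triangles), filled blue where the limma adjusted p was under 0.05, with a black bar at the reported value. Doc1, Doc2, Doc3 and bi stay below -1.3 throughout, while mid and org-1 have values on each side of 0.

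In the RefSeq gene table of Release 6, which served only for gene order because the files name no genome build, Doc3, CG5194, Doc2 and Doc1 follow one another in that order. CG5194, the gene between Doc3 and Doc2, averaged 34.7 ± 38.0 in body wall and 42.1 ± 10.8 in wing/hinge arrays (SD, n = 3 each). Its log2 difference was -0.37 (SE 0.56, 95% interval -1.70 to 0.96; limma adjusted p = 0.909), at signal near the controls. On the far side of Doc1, Argk1, an arginine kinase gene, differed by -0.49 (SE 0.32; limma adjusted p = 0.76) and CG4911 by 0.56 (SE 0.43; limma adjusted p = 0.799). Neither passed the test.

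Next to bi, CG3626 averaged 215.5 ± 35.8 in body wall and 282.1 ± 22.4 in wing/hinge arrays (SD, n = 3 each). Its fragments did not overlap, and its difference of -0.40 did not pass (limma adjusted p = 0.712). CG3556 on the other side gave 0.87 (limma adjusted p = 0.75). Beside the mid and H15 pair, the mechanosensory channel gene nompC gave -0.73 (limma adjusted p = 0.712) and Acsf2 gave 1.05 (limma adjusted p = 0.463). All 3 wing/hinge values of CG5194, CG3556 and Acsf2 lay under the control percentile of 55.1, and each gene had values under the floor of 20.4, on which the sizes of these differences depend.

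Taking up to 3 genes with a probe set on each side of each member gave 25 neighbours outside the 7, of which 22 passed the filter on low values. By limma with Benjamini-Hochberg adjustment 0 of the 22 were called, against 0.915% of all probe sets. At that share few or no calls arise in 22 probe sets, so the count does not set the neighbours apart. At an unadjusted limma p under 0.05 there was 1, against 8.97% of all probe sets. The differences of the neighbours ran from -0.73 to 1.05. The lowest of their adjusted p-values was 0.463.

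**Figure D5:**
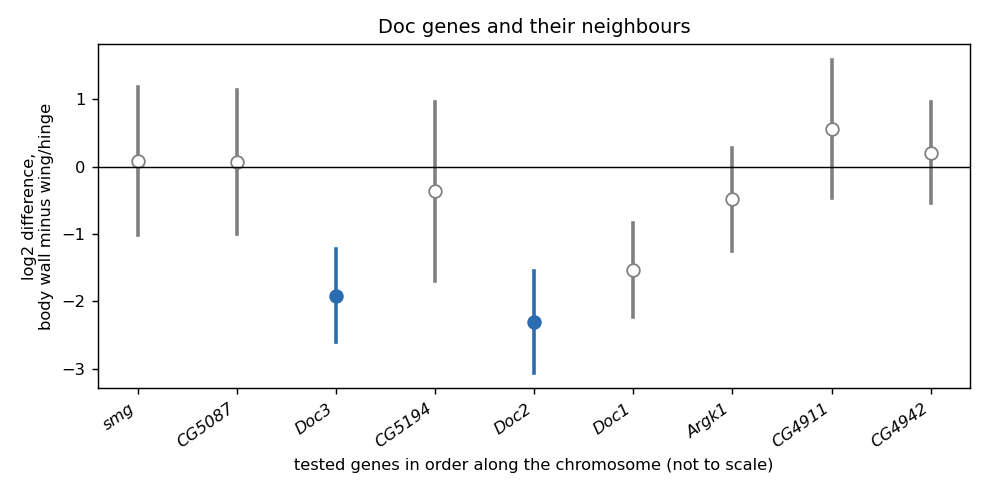
Log2 difference, body wall minus wing/hinge, with its 95% interval from limma for tested genes in their order around the Doc genes (spacing not to scale), filled blue where the adjusted p was under 0.05. Doc3, Doc2 and Doc1 lie at -1.92, -2.30 and -1.53, and the genes between and beside them lie between -0.49 and 0.56.

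For each member the single-gene probe sets with the most similar profile were found by Euclidean distance between log2 values, each centred on its mean over the 6 arrays. These distances are a description only. For bi the closest was LpR1, a lipophorin receptor gene (distance 0.434), followed by zfh2, a zinc finger homeodomain gene of the hinge (0.603), and by Doc3 (0.775). LpR1 was called higher in wing/hinge (limma adjusted p = 0.023), with all 3 body wall values under the control percentile of 55.1. Its log2 difference of -2.63 is thus set against signal at background, and was -1.85 with values under 55.1 raised to it. The zfh2 probe set differed by -2.87 (limma adjusted p = 0.0036). Of 10417 single-gene probe sets set against bi, Doc3 was thus at rank 3, Doc2 at rank 36 and Doc1 at rank 71.

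For Doc2 the closest were CG10311 (distance 0.689, difference -2.28), opa, the odd-paired zinc finger gene (0.784, -2.59), and CG14301 (0.789, -2.25), all 3 called (limma adjusted p 0.0185, 0.035 and 0.0474). The opa signal was 2.9, 4.1 and 42.7 in body wall, against 121.9, 207.0 and 153.0 in wing/hinge. That of CG10311 was 12.8, 11 and 31.2 in body wall, against 127.2, 121.3 and 95.9 in wing/hinge. Both genes were under 55.1 on all 3 body wall arrays, so their differences depend on the floor, and with values under 55.1 raised to it they were -1.51 for opa and -1.05 for CG10311. Doc1 ranked 11 among the profiles closest to Doc2.

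For Doc3 the closest were the cuticle protein gene Cpr35B (0.520), Sdb (0.597) and a dimmer zfh2 probe set (0.656), with bi at rank 7. Of these Sdb was called (-1.90; limma adjusted p = 0.032), while Cpr35B (-1.71) and the dimmer zfh2 probe set (-1.52) were not. For Doc1 the closest were CG3726 (0.419), CG8119 (0.504) and the cuticle protein gene Cpr73D (0.516), with Doc2 at rank 82. CG3726 (-1.60; limma adjusted p = 0.0302) and Cpr73D (-1.55; limma adjusted p = 0.0429) were called at differences close to that of Doc1, which was not. CG3726, CG8119 and Cpr35B were under 55.1 on all 3 body wall arrays, and with values under 55.1 raised to it they differed by -1.32, -0.40 and -0.69.

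The closest profiles to H15 were Cpr72Eb (0.175), CG2841 (0.294) and Spn43Ab (0.306), and to mid alpha-Est3 (0.292), CG14837 (0.306) and DptB (0.366). To org-1 they were CG12912 (0.416), Hecw (0.439) and Rbcn-3B (0.447), whose higher arrays were again body wall 2, body wall 3 and wing/hinge 3. Under 6 other scalings and floors the closest gene stayed among the nearest 3 in 5 for bi, 3 for Doc2, 4 for Doc3, 4 for Doc1, 6 for H15, 6 for mid and 0 for org-1.

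Among tested genes of the pathway that controls bi in the wing, none was called, against 0.915% of all probe sets. In simulated data the fit called 8% of differences of log2 size 1, so an uncalled gene was not shown to be equal in the fragments. The listed genes brk, nmo, sog, dally and scw had no probe set of their own name and were not measured here. Of 10 tested Dpp ligands and extracellular regulators (13 listed), 10 did not pass, with a median log2 difference of 0.01. The largest were magu, a secreted feedback regulator also known as pentagone, with a mean of 816.7 ± 127.9 in body wall and 389.6 ± 48.2 in wing/hinge arrays (SD, n = 3 each) and a difference of 1.06 (limma adjusted p = 0.165), tsg at 0.62, tok at -0.44 and cv-2 at 0.34. Of 12 tested receptors and transducers (14 listed), 12 did not pass, with a median of -0.02. Dad, an inhibitory Smad gene that Dpp signalling induces, averaged 227.9 ± 67.3 in body wall and 381.7 ± 39.9 in wing/hinge arrays (SD, n = 3 each), a difference of -0.78 (limma adjusted p = 0.437). The type II receptor gene wit gave -0.53, the zinc finger gene shn -0.32 and the receptor gene put -0.26.

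Genes that respond to Dpp in wing and vein patterning gave 0 of 8 called by limma with Benjamini-Hochberg adjustment, against 0.915% of all probe sets. Their median was -0.09. The selector gene vg lay at -1.12 (limma adjusted p = 0.174, unadjusted p = 0.00385), the Iroquois genes caup and ara at 0.69 and 0.66, and knrl at -0.60. Of 8 tested Wg and Hh inputs (15 listed, wg itself not tested), 8 did not pass, with a median of -0.79. The posterior genes inv, en and hh gave -1.12, -1.05 and -1.01. The Hh receptor gene ptc gave -0.89, with overlapping fragments. At an unadjusted limma p under 0.05 the counts were 1 of 10 ligands and regulators, 1 of 12 receptors and transducers, 1 of 8 responsive genes and 5 of 8 Wg and Hh inputs, against 8.97% of all probe sets. The 5 inputs were inv, en, hh and nkd (-0.70), toward wing/hinge, and ci (0.54), toward body wall, without ptc. With a variance that follows intensity, 3 genes of these lists passed, namely magu, vg and inv.

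Factors that work with T-box genes in the embryonic heart, amnioserosa and muscle gave 1 of 11 tested called (16 listed), against 0.915% of all probe sets. At an unadjusted limma p under 0.05 there were 3 of 11, against 8.97% of all probe sets, and the median of the list was 0.26. The called gene was pnr, a GATA factor gene of the dorsal ectoderm and heart, which is also among the called body wall markers above. It averaged 496.8 ± 143.0 in body wall and 15.1 ± 8.39 in wing/hinge arrays (SD, n = 3 each). It was called higher in body wall (limma adjusted p = 0.00161), in the direction opposite to the Doc genes. All 3 wing/hinge values lay under the control percentile of 55.1, so the log2 difference of 4.55 depends on the floor, and with values under 55.1 raised to it the difference was 3.13. Uncalled members furthest from 0 were tup at 1.43, ush, which encodes a partner of pnr, at 1.17, and peb at 0.67, while srp, at 0.70, was under 55.1 on all 6 arrays. Of these, tup and ush are also body wall markers here, and srp is also a haemocyte marker. The lists were chosen by knowledge of these genes with earlier results of the data known, and their counts are descriptions.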

How the data were processed

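The authors deposited 1 intensity for each probe set on each array, on a linear scale as judged from the values. Their 2% trimmed mean was 300.0 to 300.1 on each array, so they were taken as already scaled. Per the labels' description, RNA came from a column kit and targets from the manufacturer's standard procedure. How probes were summarised and arrays scaled is not given in the sources used here. Array medians were 89.6 to 117.8. Precision is limited by the number of arrays.

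Groups and replicate numbers came from the titles. Of 13966 probe sets for fly RNA, 12443 had 1 gene symbol, 327 several and 1196 none, and 44 control probe sets were left out. A floor of 20.4, the 20th percentile over the 6 arrays together, replaced lower values before log2. Probe sets above it on at least 3 of 6 arrays were tested, all 7 members among them. Background was judged by 23 control probe sets for RNA of bacteria, mouse and yeast. The test was limma (version 3.58.1, run in R 4.3.3 with lmFit and eBayes, two-sided and without a block). P-values were adjusted by Benjamini-Hochberg over the 11698 probe sets tested, with a threshold of 0.05. The test was tried on simulated data, with differences planted in probe sets brighter than the median. It called 8% of those of log2 size 1, 82% at size 2, 88% at size 3 and 98% at size 4. With 3 arrays a fragment the smallest p of an exact permutation test is 0.1, so none was used. Every log2 difference is the body wall mean minus the wing/hinge mean.

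Named genes were the members, called list members with up to 4 uncalled ones per list (those furthest from 0), neighbours in gene order and the 3 closest profiles of each member. Further list genes were named where a sum or count rests on them. Marker lists are given as sums, and neighbours beyond those named as a range. In lists, the brightest probe set stood for a gene that has several. The members and lists were chosen with earlier results of these data known. Alternatives covered scaling, floor, filter, variance model, blocks, averaging body wall 1 and 2, and arrays left out. A floor from the control probe sets was added after seeing the data.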

Additional observations from a re-analysis of the deposited data

How the results depend on the processing

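The count of T-box members called, 3 of 7, fell to 1 with the floor halved or with body wall 1 and 2 averaged, and to 0 without the filter on low values, with a replicate block or with the arrays blocked by brightest value. It was 0 to 1 with an array left out, was 4 with arrays centred on their medians or with the floor from control probe sets, and was 2 to 3 otherwise. Over all probe sets the 107 calls became 10 with the replicate block, 52 with the block by brightest value, 49 with body wall 1 and 2 averaged and 34 to 47 with an array left out. The 18 called list genes became 5 with the replicate block and 11 to 14 with an array left out. Fewer degrees of freedom are part of the blocked, averaged and left-out fits by construction, and other causes were not tested. Same-numbered arrays correlated at 0.06, -0.16 and 0.19 in their deviations from the fragment means, and the other pairs at -0.24 to 0.18. Deviations within 3 arrays constrain each other, so these values cannot decide whether the numbers pair the arrays. Signs turned only in uncalled genes: org-1 to -0.24 and CG5194 to 0.0398 with the block by brightest value, and, with an array left out, org-1 (-0.051 without body wall 3 to 1.04 without wing/hinge 3), mid (-0.57 without wing/hinge 3 to 0.19 without wing/hinge 2) and byn (-1.27 without wing/hinge 3 to 0.32 without wing/hinge 2). Signal near background limits bi, Doc2 and Doc3 in body wall: with the floor from control probe sets they gave -2.34, -2.18 and -1.69 and kept their calls. That floor makes low values equal and so reduces their spread by construction, with SE of 0.24 for bi and 0.23 for Doc3. The kept calls therefore cannot show that background is without effect.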
